A study of Caenorhabditis elegans with 2 samples.

Results

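Peaks of eGFP-tagged ZTF-11 at the genes of 7 neuronal ion channel families were described in whole third-stage (L3) larvae of Caenorhabditis elegans. The members were the protein-coding genes of the WBcel235 annotation whose name is acr, lgc, glr, nmr, twk, kvs or kqt followed by a number, 139 of 19985 protein-coding genes. They were picked by name, with no measured value in the rule, but earlier results of these data were known when the rule was set. The chromatin came from mixed-sex animals of strain OP236, whose labels give the mutation unc-119(ed3) III and the transgene wgIs236, and both replicates carry both. The labels describe the transgene as an insertion targeting ztf-11. They give neither the promoter that drives the tagged protein nor its level next to the untagged one, and their antibody field names ztf-11. The 2 biological replicates form 1 group, with no second genotype, stage or untagged sample used here, so nothing is compared between conditions. The comparison is between the channel genes and all protein-coding genes, list by list. All protein-coding genes include those of the mitochondrial DNA, where no channel gene lies. Whole larvae were used, so strong binding in few cells and weak binding in many cannot be told apart.

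ZTF-11 belongs to the Myt1 family of zinc finger transcription factors, which act as repressors during the formation of neurons. Ion channel subunits are among the genes that a neuron switches on late, as it takes on its transmitter responses and its firing pattern. Ligand-gated channels open when a transmitter binds: the acr genes encode subunits of nicotinic acetylcholine receptors, and the lgc genes encode other channels of the same pentameric superfamily, which respond to acetylcholine, amines or GABA. The glr genes encode AMPA- and kainate-type and the nmr genes NMDA-type glutamate receptor subunits. Potassium channels set the resting potential and end the action potential: the twk genes encode tandem-pore leak channels, the kvs genes voltage-gated channels and the kqt genes channels of the KCNQ type. Several of these genes also act in muscle, pharynx or intestine.

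The largest families were lgc with 56 members, twk with 44 and acr with 21, followed by glr with 8, kvs with 5, kqt with 3 and nmr with 2. The ligand-gated families together held 87 genes and the potassium channel families 52. Channel genes were long, with a median gene body of 4.37 kb (range 1.60 to 17.8 kb), against 2.03 kb for all protein-coding genes. Of the 139, 40 lay on the X chromosome (28.8%), against 13.7% of all protein-coding genes.

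The deposited lists held 30000 peaks for replicate 1, 2036 for replicate 2 and 631 for the pooled replicates on the genome build ce11, and the authors' thresholded list held 96. Read numbers are not among their columns, and the sequencing depth is unknown. Each peak carries the authors' signal score, whose scale no label or header states. It serves only within a list, where rank 1 is the strongest peak. Replicate 1 scores ran from 6.32 to 74.2 and replicate 2 scores from 14.7 to 614, so the numbers of the lists are not on one scale. Per the authors' naming, the replicate and pooled lists hold background intervals as well as peaks, as input to the step that made the thresholded list. The q-values in these lists reached 0.752 in replicate 1, 0.972 in replicate 2 and 0.972 in the pooled list, with medians of 0.460, 0.876 and 0.657. At a q of 0.05 or lower stood 1472 intervals of replicate 1 (4.91%), 56 of replicate 2 (2.75%) and 48 of the pooled list (7.61%). The word peak stands here for any interval of a list, most of which the authors' own q-values do not separate from background. A gene was said to have a 5′ peak when the summit of a peak lay within 1000 bp of its annotated start, and a body peak when a summit lay between its start and its end.

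Sequence is shown for the 3 pooled-list peaks at channel genes, since that list holds no others at any member, and for the strongest replicate 2 peaks of kvs-5 and lgc-38, which were chosen after their values were seen. Each run gives the 201 bases centred on the summit, on the plus strand of ce11 and 5′ to 3′. Capitals mark AAGTTT or its reverse complement AAACTT, the core of the sites that Myt1-family zinc fingers bind in mammals, searched on both strands.
lgc-31 (chrV:15518677-15518877): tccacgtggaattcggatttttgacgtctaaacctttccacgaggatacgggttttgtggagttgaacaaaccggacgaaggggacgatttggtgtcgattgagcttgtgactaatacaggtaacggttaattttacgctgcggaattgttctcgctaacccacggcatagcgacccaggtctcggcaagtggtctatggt
lgc-21 (chrX:14068361-14068561): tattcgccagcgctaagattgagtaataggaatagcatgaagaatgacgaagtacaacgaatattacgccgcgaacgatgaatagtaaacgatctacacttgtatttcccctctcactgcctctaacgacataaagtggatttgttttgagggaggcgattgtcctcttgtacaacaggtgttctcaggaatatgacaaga
twk-43 (chrV:13353818-13354018): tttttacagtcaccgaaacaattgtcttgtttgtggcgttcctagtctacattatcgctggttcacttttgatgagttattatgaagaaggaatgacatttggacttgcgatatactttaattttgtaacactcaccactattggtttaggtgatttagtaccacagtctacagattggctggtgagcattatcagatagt
kvs-5 (chrIV:736250-736450): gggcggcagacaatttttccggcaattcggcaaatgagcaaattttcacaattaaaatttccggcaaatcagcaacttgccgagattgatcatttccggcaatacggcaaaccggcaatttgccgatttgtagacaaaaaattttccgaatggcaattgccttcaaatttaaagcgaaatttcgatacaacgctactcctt
lgc-38 (chrIII:7014517-7014717): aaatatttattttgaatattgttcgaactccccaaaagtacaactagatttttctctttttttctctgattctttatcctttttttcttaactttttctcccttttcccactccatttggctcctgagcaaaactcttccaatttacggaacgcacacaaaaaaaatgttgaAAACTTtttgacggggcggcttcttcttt
The windows of lgc-31, lgc-21, twk-43 and kvs-5 held no AAGTTT on either strand, and that of lgc-38 held 1, starting 72 bases after the summit. No match says only that these letters are not in the window. The lgc-31 summit lay in an intron of lgc-31 and in an exon of F21A3.3, an overlapping gene. The twk-43 window overlapped a coding exon of twk-43. The lgc-21 and kvs-5 windows lay upstream of their genes and the lgc-38 window in an intron.

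In replicate 1 a 5′ peak was present at 65 of the 139 channel genes (46.8%, exact Clopper-Pearson 95% confidence interval 38.3 to 55.4), against 48.9% of all protein-coding genes. In replicate 2 it was present at 8 (5.76%, interval 2.52 to 11.03), against 4.86%. In the pooled list 1 gene had one (0.719%, interval 0.0182 to 3.94), against 1.64%, and in the thresholded list none did (0%, upper limit 2.62), against 0.26%. The share of all protein-coding genes lay inside the interval in every list. That share includes mitochondrial genes. Without them, the pooled share was 1.57% of X genes and 1.58% of autosomal genes. The thresholded share was 0.330% of X genes and 0.186% of autosomal genes. Most of these intervals were weak: the median q of the peaks in the windows of channel genes was 0.5001 in replicate 1 and 0.929 in replicate 2, against 0.460 and 0.872 over the windows of all genes, so these shares compare near-background intervals for the most part. Intervals cover counting error over genes only, not the spread between animals. At a q of 0.05 or lower, a cut added after the data were seen, 2 channel genes had a 5′ peak in replicate 1, lgc-21 and lgc-29 (1.44%, interval 0.175 to 5.10), against 3.14% of all genes. In replicate 2 none had one (0%, upper limit 2.62), against 0.135%. In the pooled list none had one, against 0.12%, the same share of all genes as in the thresholded list (0.12%). Shares without mitochondrial genes were not computed at this cut. The 2 replicates put the difference over the full lists on opposite sides of 0, at -2.09 percentage points in replicate 1 and 0.892 in replicate 2.

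**Figure D1:**
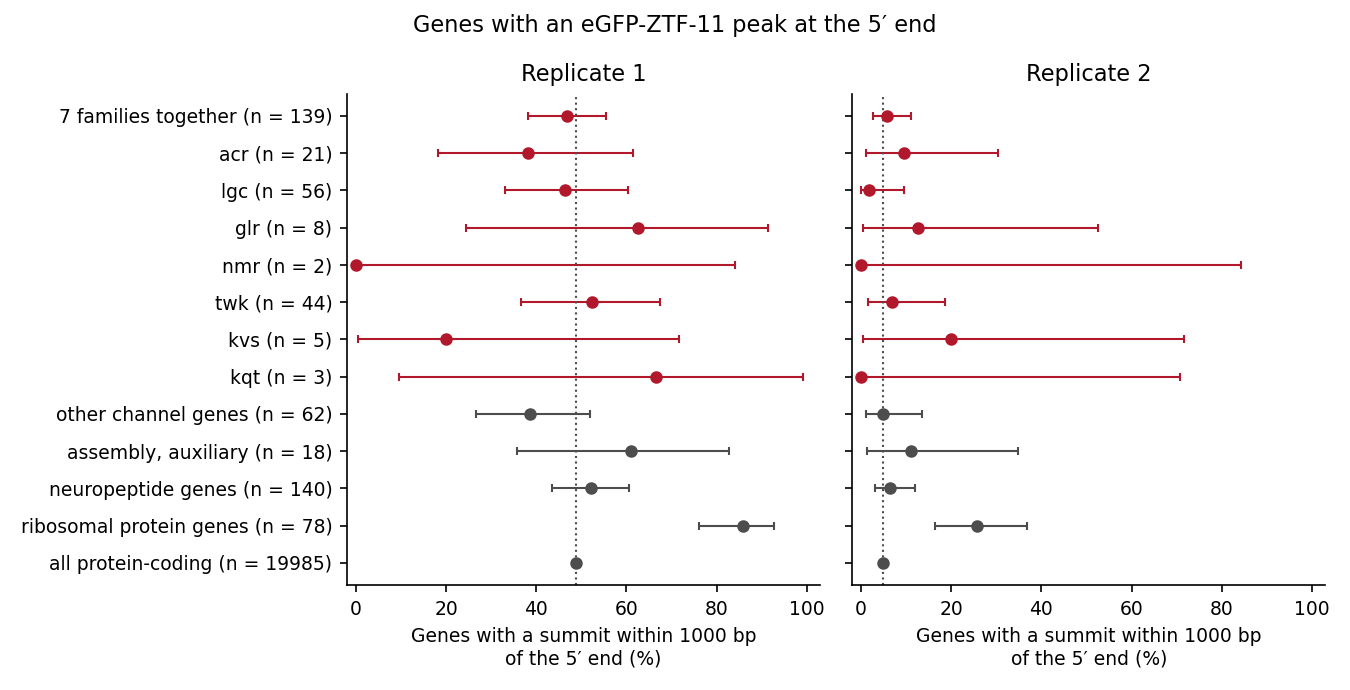
Share of genes (%) with a summit within 1000 bp of the 5′ end in replicate 1 (left) and replicate 2 (right), for the channel families (red) and 5 further gene groups (grey); points are shares, bars exact 95% intervals, and the dotted line is the share of all protein-coding genes. The channel families together sit at 46.8% and 5.76%, beside the dotted lines at 48.9% and 4.86%, and the ribosomal protein genes lie far to the right of them.

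Among the ligand-gated families, 5′ peaks in replicate 1 were found at 8 of 21 acr genes, 26 of 56 lgc genes, 5 of 8 glr genes and neither of the 2 nmr genes. Among the potassium channel families, they were found at 23 of 44 twk genes, 1 of 5 kvs genes and 2 of 3 kqt genes. The share was 44.8% (interval 34.1 to 55.9) over the ligand-gated genes and 50% (interval 35.8 to 64.2) over the potassium channel genes, with wide overlap. The replicate 1 background lay inside the interval of each of the 7 families. Replicate 2 had 2 acr, 1 lgc, 1 glr, 3 twk and 1 kvs gene with a 5′ peak, and no nmr or kqt gene.

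The 65 genes with a 5′ peak in replicate 1 had a median signal score of 8.87 (quartiles 7.39 and 10.2), against 9.35 (quartiles 7.71 and 11.7) for the 9764 protein-coding genes with one. The 8 genes of replicate 2 had a median of 15.8 (quartiles 15.1 and 16.2), against 16.7 (quartiles 15.5 and 18.7) for 972 genes. In both lists the upper quartile of the channel genes lay below that of all genes. Of the 65 genes, 44 had 1 summit in the window, 20 had 2, and kqt-2, which encodes a KCNQ-type channel, had 3. The strongest summit lay upstream of the start at 32 genes and downstream at 33, so 49.2% were upstream, against 43.8% of all genes with a replicate 1 peak. Of the 87 replicate 1 peaks in these windows, 84 had the channel gene's start as the nearest one of any protein-coding gene. The like counts of summits and of nearest starts were not made over all genes. With each peak given only to its nearest start, 45.3% of channel genes had a replicate 1 5′ peak, against 44.0% of all genes.

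**Figure D2:**
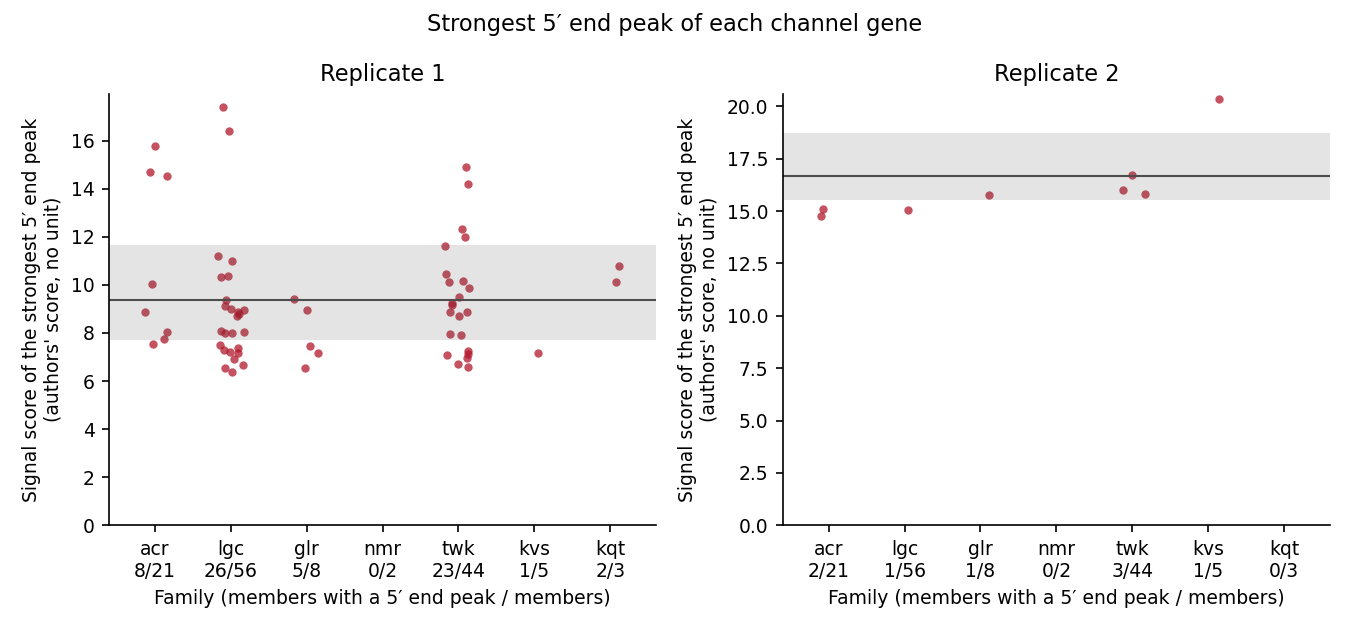
Signal score of the strongest 5′ peak (authors' score, no unit) for each channel gene that has one, by family, in replicate 1 (left) and replicate 2 (right); the grey line and band are the median and quartiles over all protein-coding genes with a 5′ peak. In replicate 1 most points fall inside or under the band and 8 genes exceed 12, and in replicate 2 kvs-5 alone lies above the band.

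The highest replicate 1 scores at acetylcholine receptor genes belonged to acr-2 and acr-12, whose products act in motor neurons. The acr-2 peak scored 15.8 (rank 1508) and its summit lay 269 bp upstream of the start on X. The acr-12 peak scored 14.7 (rank 2195) at 86 bp upstream, also on X. Neither gene had a replicate 2 peak within the window or in its body. At acr-6, another receptor subunit gene, the strongest replicate 1 peak scored 14.5 (rank 2336) and lay 687 bp upstream, in an exon of anc-1. A weaker replicate 1 peak of acr-6, with a score of 11.7, overlapped its replicate 2 peak, which scored 15.1 (rank 1714) and lay 144 bp downstream of the start, in an intron. In replicate 2 acr-24 had a 5′ peak of 14.8 (rank 1958), 275 bp upstream, with none in replicate 1.

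In the lgc family lgc-29 had the highest 5′ score of any channel gene in replicate 1, 17.4 (rank 875), at a summit 820 bp into the gene, in an intron, and it had no replicate 2 peak. Second was lgc-21 on X, the channel gene with a 5′ peak in the most lists. Its peak (chrX:14068301-14068620, WBGene00007903) scored 16.4 in replicate 1 (rank 1223), with the summit 477 bp upstream of the start. An overlapping replicate 2 peak scored 15.1 (rank 1739), with its summit 440 bp upstream. The pooled list gave the same interval as replicate 1, with a score of 32.7 (rank 214 of 631). The gene lgc-21 was the only member with a 5′ peak in all 3 lists, and the only one with a pooled 5′ peak, and that peak was not in the thresholded list.

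Of the glutamate receptor genes, glr-1, an AMPA-type subunit of the interneurons that drive locomotion, had a weak replicate 1 peak, with a score of 7.45 (rank 22293) at 228 bp upstream. Its partner subunit gene glr-2 had none in replicate 1 and a replicate 2 peak of 15.8 (rank 1318) at 615 bp upstream. Neither nmr-1 nor nmr-2 had a 5′ peak in any list. These genes, and acr-16, acr-23, twk-18, lgc-55 and lgc-46 below, are named because their products are well known.

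Among the potassium channel genes, twk-26 had the highest 5′ score in replicate 1, 14.9 (rank 2067), at 918 bp upstream, in an exon of rsef-1. A further 3 twk genes had a 5′ peak in replicate 2. The twk-48 peak scored 16.7 (rank 929) and lay 898 bp downstream of the start, in an intron, where a replicate 1 peak of 6.39 overlapped it. The twk-42 peak scored 15.997 (rank 1214) at 882 bp upstream, with none in replicate 1. The twk-28 peak scored 15.8 (rank 1300) 570 bp downstream of the start, in an intron, and the replicate 1 peak of twk-28, with a score of 7.95, lay upstream and nearer to the start of ets-9. The highest 5′ score in replicate 2 was that of kvs-5, a voltage-gated channel gene, at 20.3 (rank 258), 397 bp upstream, and replicate 1 had no peak there. The gene twk-18, whose product acts in body-wall muscle, had a replicate 1 score of 10.1 and no replicate 2 peak.

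A 5′ peak in both replicate lists was present at 4 channel genes, acr-6, lgc-21, twk-28 and twk-48 (2.88%), against 3.11% of all protein-coding genes. Of the 8 channel genes with a replicate 2 5′ peak, 50% also had one in replicate 1, against 63.9% of the 972 genes. The peaks themselves overlapped by at least 1 bp at acr-6, lgc-21 and twk-48, and at twk-28 they were apart. Replicate 1 alone had a 5′ peak at 61 channel genes (43.9%), against 45.7% of all genes. Replicate 2 alone had one at 4 (acr-24, glr-2, twk-42 and kvs-5, 2.88%), against 1.76%, and 70 had one in neither (50.4%), against 49.4%. Counting gene bodies as well, 23 channel genes had no peak in any list (16.5%), against 31.5% of all genes, which are shorter.

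Around the 5′ ends, replicate 1 summits reached 0.460 per gene per kb for the channel genes in the 250 bp downstream of the start, against 0.387 for all genes. The channel genes reached the same value from 1250 to 1500 bp downstream, where all genes had 0.336. In the 250 bp upstream the values were 0.432 for the channel genes and 0.3002 for all genes. From 500 to 750 bp downstream they were 0.230 for the channel genes and 0.347 for all genes. Each bin of the channel genes holds between 5 and 16 summits, so each value rests on few peaks. In replicate 2 all genes peaked within 250 bp upstream, at 0.0434 summits per gene per kb. In that bin the channel genes had 0 summits, while 3 fell between 500 and 250 bp upstream. No replicate 2 bin of the channel genes held more than 3 summits, too few to place a peak of their own.

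**Figure D3:**
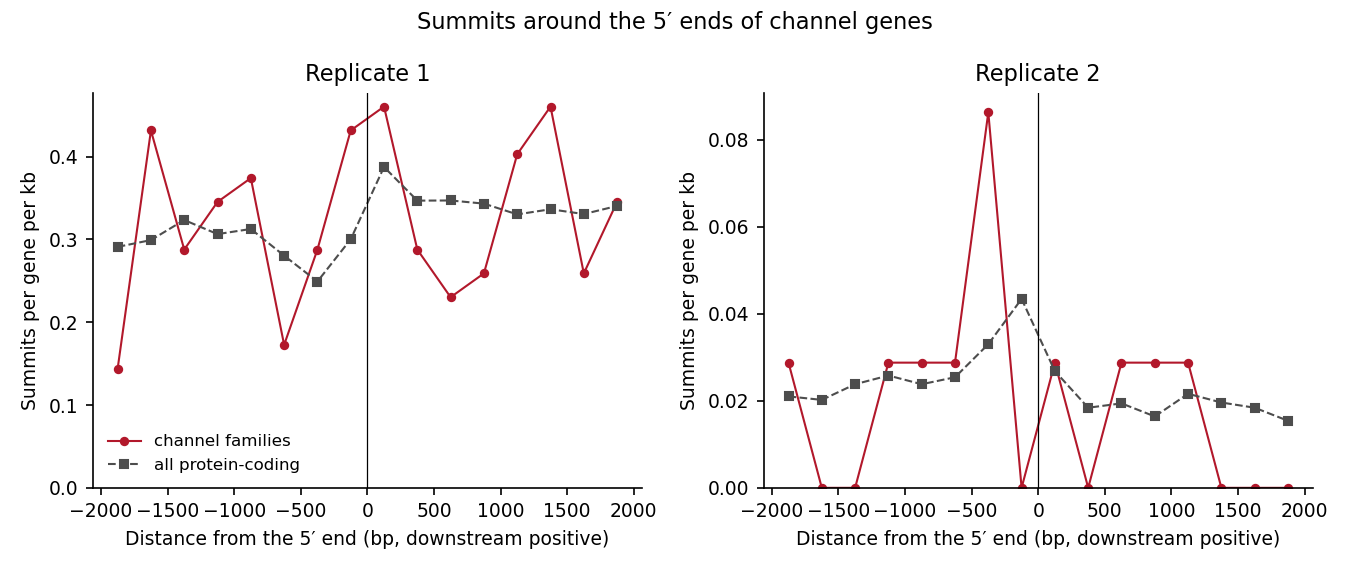
Summits per gene per kb in bins of 250 bp within 2000 bp of the 5′ end (downstream positive), in replicate 1 (left) and replicate 2 (right), for the channel families (red) and all protein-coding genes (grey). In replicate 1 the channel genes scatter about the grey line, with 0.460 against 0.387 summits per gene per kb just downstream of the start, and in replicate 2 they rest on at most 3 summits a bin.

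Body peaks were found at 106 of the 139 channel genes in replicate 1 (76.3%), against 55.5% of all protein-coding genes. In replicate 2 they were found at 9 (6.47%), against 5.21%, in the pooled list at 2 (1.44%), against 1.64%, and in the thresholded list at none, against 0.14%. Without mitochondrial genes, the pooled share was 1.83% of X genes and 1.55% of autosomal genes. The thresholded share was then 0.220% and 0.0696%. Channel genes were longer than most genes, and per unit length the replicate 1 difference was gone. The channel genes held 262 replicate 1 summits in 784 kb of gene body, or 0.334 per kb (exact Poisson 95% interval 0.295 to 0.377), against 0.344 per kb over all protein-coding genes. In replicate 2 they held 9, or 0.0115 per kb (interval 0.00525 to 0.0218), against 0.0182. In the pooled list they held 2, or 0.00255 per kb (interval 0.000309 to 0.00922), against 0.00545. The ratios were 0.973, 0.632 and 0.469, and the background rate lay inside the interval in all 3 lists. Set against nuclear genes of the same 5 length classes, the ratios were 1.01, 0.632 and 0.500. Against the rates of X and autosomes, also without mitochondrial genes, they were 0.961, 0.648 and 0.499. The pooled shift from 0.469 was thus not particular to length matching.

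**Figure D4:**
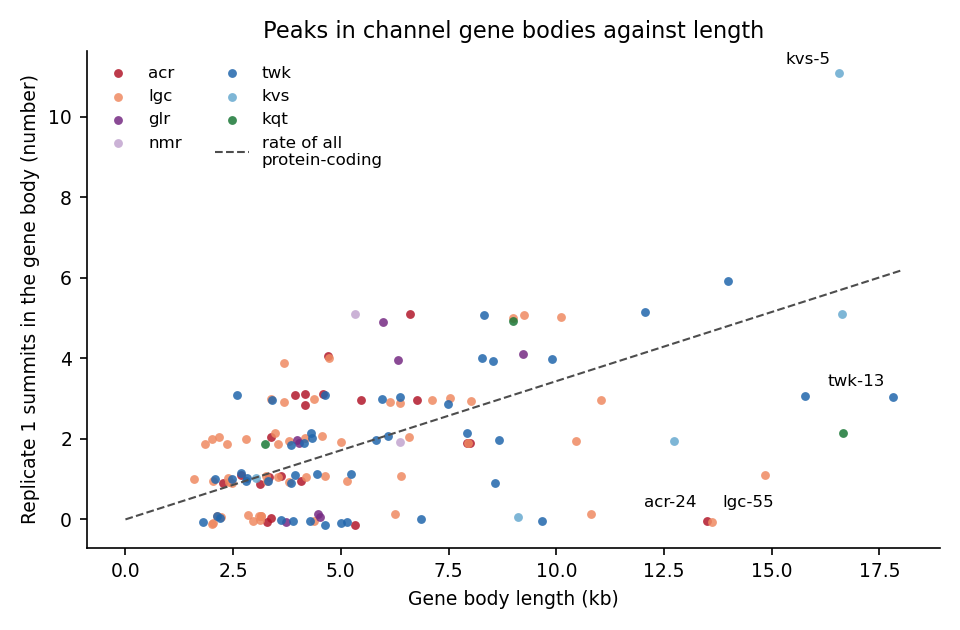
Replicate 1 summits in the gene body of each channel gene against its length (kb), coloured by family and shifted slightly up or down where counts coincide; the dashed line is the rate of all protein-coding genes. The points scatter about the line, with kvs-5 far above it at 11 summits and lgc-55 and acr-24 at 0 summits.

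By family, replicate 1 summits per kb of gene body were 0.374 for acr, 0.332 for lgc, 0.402 for glr, 0.599 for nmr, 0.302 for twk, 0.327 for kvs and 0.312 for kqt. Every family's interval took in the background of 0.344. The densest gene of each family was acr-21 at 0.852 per kb, lgc-35, a GABA-gated cation channel, at 1.09, glr-7 at 0.838, nmr-2 at 0.940, twk-48 at 1.15, kvs-5 at 0.664 and kqt-2 at 0.617. These rest on few summits, 5 each at glr-7 and nmr-2, 4 each at acr-21 and lgc-35, 3 at twk-48 and 2 at kqt-2. The gene kvs-5 had the most of any member, 11 summits over 16.6 kb, of which 10 lay in introns, with scores from 6.55 to 10.5. At the other end, 33 channel genes had no replicate 1 body peak. The longest of them were lgc-55, a tyramine-gated chloride channel gene of 13.6 kb, acr-24 of 13.5 kb, lgc-46, an acetylcholine-gated chloride channel gene of 10.8 kb, and twk-7 of 9.67 kb.

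In the pooled list 2 channel genes had a body peak, and by replicate 1 rank these were the strongest peaks at any channel gene. The lgc-31 peak (chrV:15518617-15518936, WBGene00008997) scored 35.5 in the pooled list (rank 162) and 23.9 in replicate 1 (rank 112), the strongest replicate 1 peak at a channel gene. Its summit lay 3243 bp from the start of lgc-31 but 1064 bp from that of F21A3.3. The twk-43 peak (chrV:13353758-13354077, WBGene00006693) scored 28.9 in the pooled list (rank 383) and 19.1 in replicate 1 (rank 481), with its summit 7640 bp from the gene's start. Replicate 2 had no overlapping peak at either. At a q of 0.05 or lower, channel gene bodies held 8 summits in replicate 1 and 0 in replicate 2 and the pooled list. The rate over all gene bodies at this cut was not computed, so these counts cannot be called high or low. The strongest replicate 2 body peak lay in an intron of lgc-38, with a score of 22.5 (rank 144), 5481 bp from the start, where replicate 1 had no overlapping peak. Body peaks of replicate 2 were also found at lgc-50, a serotonin-gated channel gene (17.7), kvs-5 (17.98), twk-2 (15.7), glr-4 (15.6) and twk-49 (14.98). Of the replicate 2 summits in gene bodies, that of glr-4, at 1049 bp, was the nearest outside the window of 1000 bp, and that of twk-48, at 898 bp, the farthest inside it. In replicate 1 acr-16, the subunit of a muscle acetylcholine receptor, had 1 body peak and no 5′ peak, and acr-23, a betaine receptor gene, had a 5′ peak of 10.1.

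Replicate 1 summits were denser in exons than in introns. Within channel genes there were 0.511 summits per kb of exon and 0.242 per kb of intron, and within all protein-coding genes 0.470 and 0.235. In replicate 2 the exon and intron rates were 0.0112 and 0.0116 per kb in channel genes, from 9 summits, and 0.0170 and 0.0192 in all genes. Introns made up 65.8% of the gene body bases of the channel genes, against 53.7% of those of all genes. On the X chromosome 24 of 40 channel genes had a replicate 1 5′ peak (60.0%), against 52.8% of all X genes. On the autosomes 41 of 99 did (41.4%), against 48.3%. In replicate 2 the channel genes had 5′ peaks at 2 of 40 on X (5%), against 3.84% of all X genes, and at 6 of 99 on the autosomes (6.06%), against 4.96%.

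The replicate 1 list was also cut by strength, a choice made after the data were seen. Among its 10000 strongest peaks, 16 channel genes had a 5′ peak (11.5%, interval 6.72 to 18.02), against 19.3% of all protein-coding genes. Among the 5000 strongest, 7 did (5.04%, interval 2.05 to 10.1), against 9.82%. Among the 2036 strongest, as many as replicate 2 holds, 3 did (2.16%, interval 0.447 to 6.18), against 4.21%. The background was above the interval at 10000 peaks and inside it at 5000, 2036 and in the full list. Channel genes on the autosomes had 5′ peaks at 9.09% (interval 4.24 to 16.6) among the 10000 strongest, against 18.9% of all autosomal genes, and at 3.03% (interval 0.629 to 8.60) among the 5000 strongest, against 9.55%. Channel genes on X had them at 17.5% (interval 7.34 to 32.8), against 22.0% of all X genes, and at 10% (interval 2.79 to 23.7), against 11.6%. The background was thus above the interval for the autosomal channel genes and inside it for the 40 on X, and whether the groups differ was not tested. The cuts are nested and not independent of each other.

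In gene bodies, among the 5000 strongest peaks the channel genes held 29 body summits, 0.0370 per kb (interval 0.0248 to 0.0531), against 0.0580 for all genes, a ratio of 0.638 (interval 0.427 to 0.916). The ratio was 0.477 at 1000 peaks, 0.621 at 2036, 0.839 at 10000 (interval 0.662 to 1.05) and 0.973 over the full list (interval 0.859 to 1.10). The background rate lay inside the interval at 1000, 2036 and 10000 peaks and over the full list, so the cut of 5000 was the only one of these 5 at which it did not, and for 5′ ends it was another cut, that of 10000. Against genes of the same length classes the ratio at 5000 was 0.659, against the rates of X and autosomes 0.630. With exons and introns taken at their own rates it was 0.710 (interval 0.476 to 1.02), which takes in 1. These intervals describe counting error at a cut chosen after the data were seen, and no test was made.

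**Figure D5:**
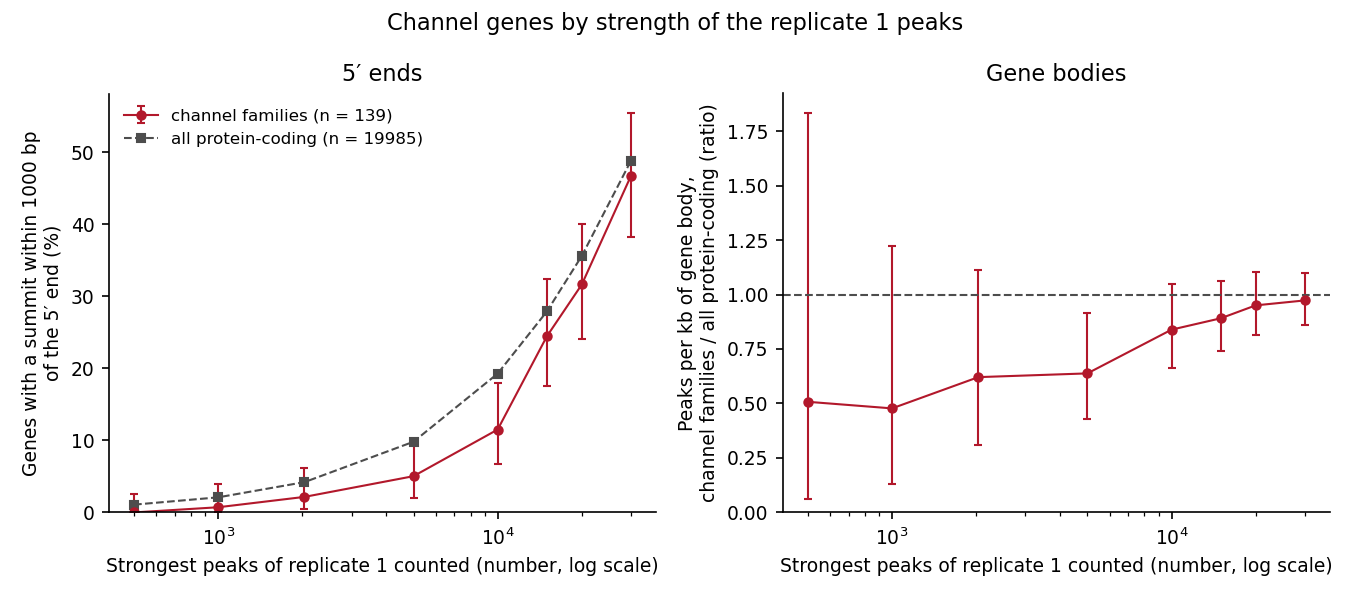
Channel families among the strongest replicate 1 peaks (number counted, log axis): left, genes (%) with a summit within 1000 bp of the 5′ end for the channel families (red, exact 95% intervals) and all protein-coding genes (grey); right, the ratio of summits per kb of gene body, channel families over all protein-coding genes, with the exact Poisson interval of the channel count. The red line lies under the grey one, whose points fall inside most of the red intervals, and the ratio is 0.973 at 30000 peaks.

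Channel subunit genes with other names, from a list of receptors and channels, were counted in the same way. Of 62 such genes found in the annotation, 24 had a replicate 1 5′ peak (38.7%, interval 26.6 to 51.9, against 48.9% of all genes). In replicate 2, 3 had one (des-2, acc-3 and kcnl-3, 4.84%, against 4.86%), and in the pooled list none, against 1.64%. Among the 10000 strongest replicate 1 peaks 9.68% had one (interval 3.63 to 19.9, against 19.3% of all genes). Pooled body peaks were present at unc-8, a sodium channel subunit gene, and irk-1, an inward rectifier potassium channel gene (3.23%, against 1.64% of all genes). Of 18 genes for the assembly and auxiliary proteins of channels, 11 had a replicate 1 5′ peak (61.1%, interval 35.7 to 82.7, against 48.9%). In replicate 2, 2 had one (stg-1 and nlf-1, 11.1%, interval 1.38 to 34.7, against 4.86%). Pooled body peaks of this group were at lev-10 and eat-18, which overlap in the annotation (11.1%, interval 1.38 to 34.7, against 1.64%). For comparison, neuropeptide genes had 5′ peaks at 52.1% in replicate 1 and 6.43% in replicate 2, with 20.7% among the 10000 strongest. Cytosolic ribosomal protein genes had them at 85.9% in replicate 1, 25.6% in replicate 2 and 16.7% in the pooled list, with 56.4% among the 10000 strongest, so strong 5′ peaks were far commoner there than at channel genes.

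The motif AAGTTT, on either strand, occurred in the 301 bases from 250 before to 50 after the start at 64 of the 139 channel genes (46.0%), against 41.7% of all protein-coding genes. In the 201 bases around the summit it occurred at 67 of 304 replicate 1 peaks at channel genes (22.0%), against 23.1% of all nuclear replicate 1 peaks. In replicate 2 it occurred at 5 of 14 (35.7%), against 34.5%, and in the pooled list at 0 of 3, against 19.4% of all. In replicate 1 the channel gene peaks thus held these letters about as often as any peak of the list. The shares were also near each other in replicate 2, but from 14 windows, and 3 pooled windows are too few to compare. On X, 27 of 94 replicate 1 windows at channel genes held the motif (28.7%), against 23.9% of all X peaks. The median GC content of the replicate 1 windows was 39.6% at channel genes and 40.8% over all peaks. A match is a description of the window, not a site.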

How the data were processed

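The authors deposited peak lists made by chromatin immunoprecipitation and sequencing. Per the labels' text records, each replicate list came from its alignments with a control, the relaxed list from both replicates pooled, and the thresholded list from these by the irreproducible discovery rate. Of the aligner, peak caller, versions and threshold, nothing is given in the sources used here. The deposited lists hold, for each peak, a signal score and a -log10 q-value by the authors. The signal score ranked peaks within a list, and the q-value served for a cut at 0.05. Peaks on ce11 were placed on the WBcel235 assembly, which has the same sequence, with Ensembl 115 genes. Every peak end lay within its chromosome. The lists on ce10 were not analysed here. No coordinates were converted. Trans-splicing can place an annotated start inside the transcribed region.

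The members and gene lists were chosen with earlier results of these data known, so shares are descriptions, with no test over genes. Shares have exact Clopper-Pearson and rates exact Poisson intervals at 95%. The named genes are every member with a pooled or thresholded peak, those with a 5′ peak in both replicates, the 5 highest 5′ scores of each replicate and the densest gene body of each family. Others are named for what their products do or for their place in the values. Peaks that overlap by 1 bp were called overlapping. Counting was tested on simulated peaks. Python 3.11.15, pandas 2.3.3, scipy 1.17.1 and matplotlib 3.10.9 were used. Of the listed channel and auxiliary genes, nca-1 and unc-74 were not matched by name and were not analysed here. Alternatives were other distances, any base of the peak, transcript starts, nearest gene, stronger peaks, a cut on q and other backgrounds.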

Additional observations from a re-analysis of the deposited data

How the results depend on the processing

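Of 108 alternatives, 76 left the value within its error or within 1.5 times, and 32 moved it. This tally does not measure how stable the results are. A shorter list or a narrower window lowers a count by construction. A difference in share was called unmoved anywhere inside the interval of the full list. By that rule -7.77 percentage points among the strongest 10000 peaks of replicate 1 counted as unmoved. At a q of 0.05 or lower, 2 channel genes had a 5′ peak in replicate 1 (1.44%, against 3.14% of all genes). In replicate 2 and the pooled list 0 had one, against 0.135% and 0.12% of all genes. With a window of 500 bp, 4 channel genes had a replicate 2 5′ peak (2.88%, against 2.96% of all genes) and 2 had one in both replicates. With 2000 bp, 100 had a replicate 1 peak (71.9%, against 72.2% of all genes) and 2 a pooled peak (1.44%, against 2.79%, median score 30.2). At that distance 8 had a peak in both replicates. The share of all genes with a peak in both replicates was not computed under the alternatives. Above the median score of each list, 34 genes had a 5′ peak in replicate 1 (24.5%, against 27.9% of all genes). In replicate 2 there were 2 (1.44%, against 2.63%, median score 18.5), and 1 had a peak in both. Body summits per kb were 0.156 in replicate 1 and 0.00510 in replicate 2, against 0.175 and 0.00872 over all genes. With replicate 1 cut to the length of replicate 2, 3 genes had a peak (2.16%, against 4.21% of all genes, median score 16.4). In that setting 1 had a peak in both, and there were 0.0140 body summits per kb, a ratio to all genes of 0.621. For the strongest 10000, 5000 and 1000 peaks of replicate 1, a choice made after seeing the data, 16, 7 and 1 genes had a 5′ peak. These were 11.5%, 5.04% and 0.719% of the channel genes, against 19.3%, 9.82% and 2.10% of all genes. Summits per kb were 0.0983, 0.0370 and 0.00510, and the ratios to all genes were 0.839, 0.638 and 0.477. The thresholded list in place of the pooled one gave 0 genes, against 0.26% of all genes. The difference in 5′ share in replicate 1, -2.09 percentage points as reported, was 4.37 at 500 bp and 2.36 with all transcript starts. With each peak given only to its nearest start it was 1.28, so the sign of this difference was not stable. The one in replicate 2, 0.892 as reported, was -0.523 at 2000 bp. Leaving out a replicate turned the count in both replicates into that of the other list, 8 to 65. No paired analysis was possible because the replicates belong to 1 group and no test was made between groups. Read depth is unknown, so the 30000 peaks of replicate 1 and the 2036 of replicate 2 cannot be set against it, and the few replicate 2 and pooled peaks at channel genes limit what those lists can show.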
